A study of Mus musculus with 26 samples.

Results

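The genes described here are 36 components of the apoptosis machinery, the Bcl-2 family, the caspases, the death receptors with their adaptors, the inhibitors of apoptosis and the pore former gasdermin E. They were followed on 26 Affymetrix arrays of lacrimal gland RNA from C57BL/6.NOD-Aec1Aec2 males. The list was taken as given, with 1 probe set per gene, the one with the highest mean over all arrays among those naming only that gene. A probe set was found for 34 of the 36 genes, out of 18194 genes with one. No probe set naming only Bax or Ripk1 was listed in the annotation used here. Of the 34 genes, 28 passed the filter on low values and entered the tests, out of 12377 genes in all. Casp2, Casp4, Bak1, Apaf1, Fasl and Tnfrsf10b did not, so counts over the 28 genes are not counts over the whole list.

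The strain carries NOD-derived segments on a C57BL/6 background, Idd3 of chromosome 3 (Aec1) and Idd5 of chromosome 1 (Aec2), and develops a disease like Sjögren's syndrome. All groups are of this strain and of male sex, and no strain without the NOD segments is part of the data, so the labels of the groups differ in age alone. Nothing in the labels says that the ages were processed together. There were 4 arrays at 4 weeks of age (before disease), 6 at 8 weeks (early pre-clinical), 6 at 12 weeks (first leukocyte influx), 5 at 16 weeks (early clinical autoimmunity) and 5 at 20 weeks (onset of secretory dysfunction). The labels call the arrays of an age biological replicates, and do not say whether RNA of several mice was pooled. Mcl1 and Casp6 lie on chromosome 3, and Cflar, Casp8, Bok, Bcl2 and Fasl on chromosome 1. The bounds of the NOD segments were not used here, so these genes were placed neither inside nor outside them.

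Apoptosis can be started at mitochondria or at the cell surface. In the mitochondrial route, BH3-only proteins such as Bim and Bad neutralise the guardians Bcl-2, Bcl-xL, Bcl-w and Mcl-1, which frees the effectors Bax and Bak to open the outer membrane. Cytochrome c then leaves and assembles the apoptosome with Apaf-1 and caspase-9, while Smac/Diablo relieves the block that the inhibitors of apoptosis place on caspases. In the surface route, receptors such as Fas and the TNF receptor recruit the adaptors Fadd and Tradd and activate caspase-8, which c-FLIP (Cflar) holds back. In Sjögren's syndrome, death of gland epithelium is one of the processes under study. An array measures mRNA of the whole gland, so fewer cells of a type and less RNA per cell cannot be told apart, and none of these values measures cell death.

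The upstream bases of Bok, Diablo and Gsdme are shown because these 3 genes had the smallest p-values of the list over the 5 ages. They are RefSeq sequences of GRCm38.p6, which is C57BL/6J, and the mice studied may differ from them. Each ends at the last base before the annotated transcription start. Bok, the Bcl-2-related ovarian killer, has its window at chr1:93685325-93685574 on the plus strand. The window of Diablo, the mitochondrial antagonist of the inhibitors of apoptosis, is chr5:123524165-123524414 on the minus strand, and that of Gsdme, the pore former that executioner caspases cut, is chr6:50261770-50262019 on the minus strand. Capitals mark GC boxes (GGGCGG) and CCAAT boxes (CCAAT), searched on both strands.
Bok: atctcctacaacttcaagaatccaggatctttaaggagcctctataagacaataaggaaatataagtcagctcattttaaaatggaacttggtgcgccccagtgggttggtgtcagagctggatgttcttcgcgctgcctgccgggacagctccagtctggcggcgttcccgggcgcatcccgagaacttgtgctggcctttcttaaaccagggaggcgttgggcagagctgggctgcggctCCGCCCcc
Diablo: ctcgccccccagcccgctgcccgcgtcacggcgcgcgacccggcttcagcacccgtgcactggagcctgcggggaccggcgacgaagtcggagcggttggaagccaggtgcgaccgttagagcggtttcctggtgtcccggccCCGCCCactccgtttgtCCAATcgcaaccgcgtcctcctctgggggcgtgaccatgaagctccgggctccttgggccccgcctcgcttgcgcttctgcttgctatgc
Gsdme: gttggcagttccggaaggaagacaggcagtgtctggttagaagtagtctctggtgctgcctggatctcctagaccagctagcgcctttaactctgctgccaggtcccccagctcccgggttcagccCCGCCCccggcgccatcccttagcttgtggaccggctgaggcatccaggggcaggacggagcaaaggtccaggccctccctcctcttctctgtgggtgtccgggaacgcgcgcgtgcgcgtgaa
Each of the 3 windows held 1 GC box, which ends 3 bases before the start in Bok, 102 bases before it in Diablo and 119 bases before it in Gsdme. The GC box was present in 32.7% of the 32851 windows of the same length in the table. Diablo also had 1 CCAAT box, 86 bases before the start, a motif found in 33.8% of windows. A TATA box (TATAAA, in 12.4% of windows), an E-box (CACGTG, 6.02%) and an AP-1 motif (TGACTCA, 4.46%) were searched in the same way, and these letters were in none of the 3 windows. Bases that were G or C made up 55.2% of the Bok window, 70.4% of the Diablo window and 64% of the Gsdme window. Promoters of 32 of the 36 genes were in the table.

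All values below are log2 expression as deposited. Array medians lay between 2.94 and 3.22, and a mean under 4.04, within 1 log2 unit of them, is called near background, where expression cannot be told from none. A change from or to such a mean is a lower bound. Levels of different probe sets cannot be compared, so each gene is compared only with itself across ages. By this measure 15 genes were above background at every age, 7 at some ages and 12 at none. The 12 were Bak1, Bcl2, Bid, Pmaip1, Apaf1, Fasl, Tnfrsf10b, Casp1, Casp2, Casp4, Casp9 and Casp12. The T-cell list averaged between 3.02 and 3.17 at the 5 ages.

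Over the 5 ages, 8 of the 28 tested genes (28.6%) changed, with 14.9% of all genes called, by limma's F test with Benjamini-Hochberg adjustment over all genes and a threshold of 0.05. They were Bok (adjusted p = 0.000502), Diablo (0.0015), Gsdme (0.00434), Birc2 (0.00473), Birc3 (0.00975), Fadd (0.0188), Bcl2l2 (0.0366) and Cycs (0.0458). The calls of Bok, Diablo, Gsdme and Birc2 held in each of 13 other settings and without each of the 26 arrays, whereas Bcl2l2 was called in 9 settings and without 16 arrays (adjusted p = 0.0902 without the pair of arrays that stood apart, described below), and Cycs in 8 settings and without 9 arrays. Genes were called in 3 of the 6 comparisons. At 8 against 4 weeks 3 genes rose. At 16 against 12 weeks Bok fell, a call kept in 7 of 14 other settings, and Gsdme rose. The comparison of 20 against 8 weeks spans several steps, the one from 12 to 16 weeks among them. There 8 genes were lower and 2 were higher, of which 1, Bid, was near background at every age. The heat map of all 34 genes shows these changes beside many rows with little change.

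**Figure D1:**
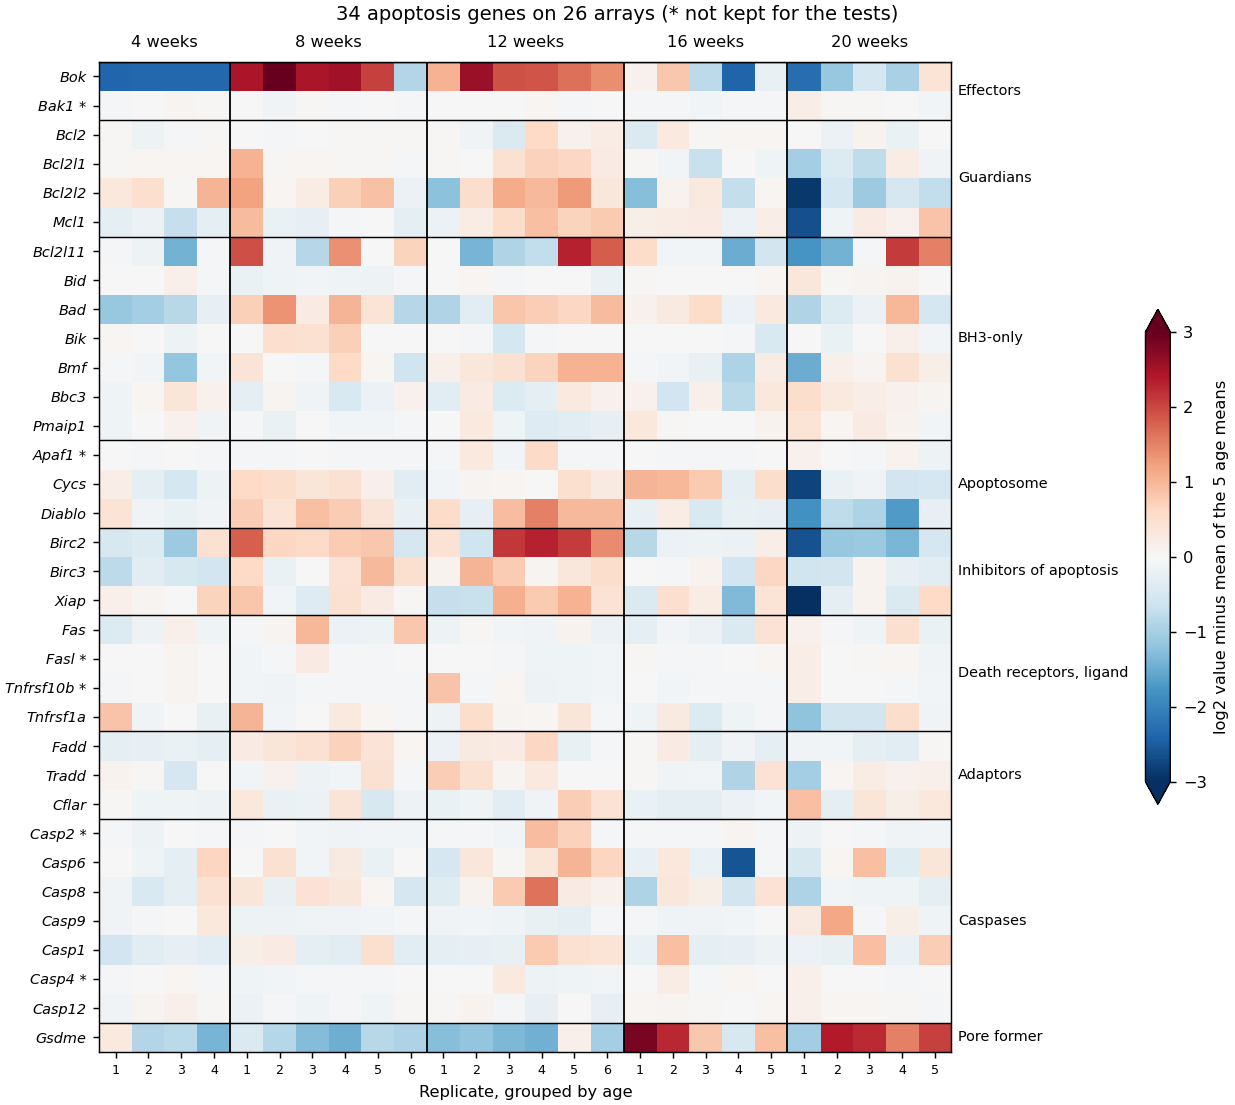
Heat map of 34 apoptosis genes (rows, grouped by role) on 26 arrays (columns, grouped by age), coloured by the log2 value minus the mean of the 5 age means of that gene (red higher, blue lower, colours saturate at 3 either way). Bok is blue on all 4 arrays at 4 weeks and red on most at 8 and 12 weeks, Gsdme is red on most arrays at 16 and 20 weeks, and replicate 1 at 20 weeks is blue in many rows. The rows labelled apoptosome include Diablo, which is not part of it, and those labelled adaptors include Cflar, which holds caspase-8 back.

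At 8 weeks 3 genes were called against 4 weeks and all 3 were higher, among 28 tested (10.7%), with 1.36% of all genes called and 1.14% called higher. The median change of the 28 genes was 0.15, against 0.03 over all genes, and 21 of 28 changes were positive, against 52.5% of all genes. In the step from 8 to 12 weeks no gene of the list was called (0.0162% of all genes). At an unadjusted p under 0.05 limma gave 1 of the 28 (3.57%), beside 4.96% of all genes. At 16 weeks 2 were called against 12 weeks, with 2.98% of all genes called, 1 of them higher (0.355% of all genes) and 1 lower (2.63%). Of all genes called in that step 11.9% were higher, and 53.7% after quantile normalization, where 2 genes of the list were called higher and 0 lower. In the step to 20 weeks none was called (0.0162% of all genes). At an unadjusted p under 0.05 limma gave 6 of the 28 (21.4%), beside 8.14% of all genes.

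At 20 weeks 10 of 28 genes (35.7%) were called against 8 weeks, with 25.2% of all genes called. The 2 higher genes stand beside 10.6% of all genes and the 8 lower ones beside 14.7%. The median change was −0.32 for the 28 genes and −0.02 for all genes. After quantile normalization these medians were 0.04 and 0.06, so the shift of the list as a whole depends on the scaling, while 6 lower and 3 higher calls were counted there. Of all genes called 41.9% were higher, 54.7% after quantile normalization and 25.2% with each array centred on its median, where 9 genes of the list were lower and 2 higher. After quantile normalization the median change of the 28 genes at 16 against 12 weeks was 0.02, where the deposited values gave −0.25. At 20 weeks none was called against 4 weeks (2.21% of all genes), and at an unadjusted p under 0.05 limma gave 4 of the 28 (14.3%), beside 14.6% of all genes.

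**Figure D2:**
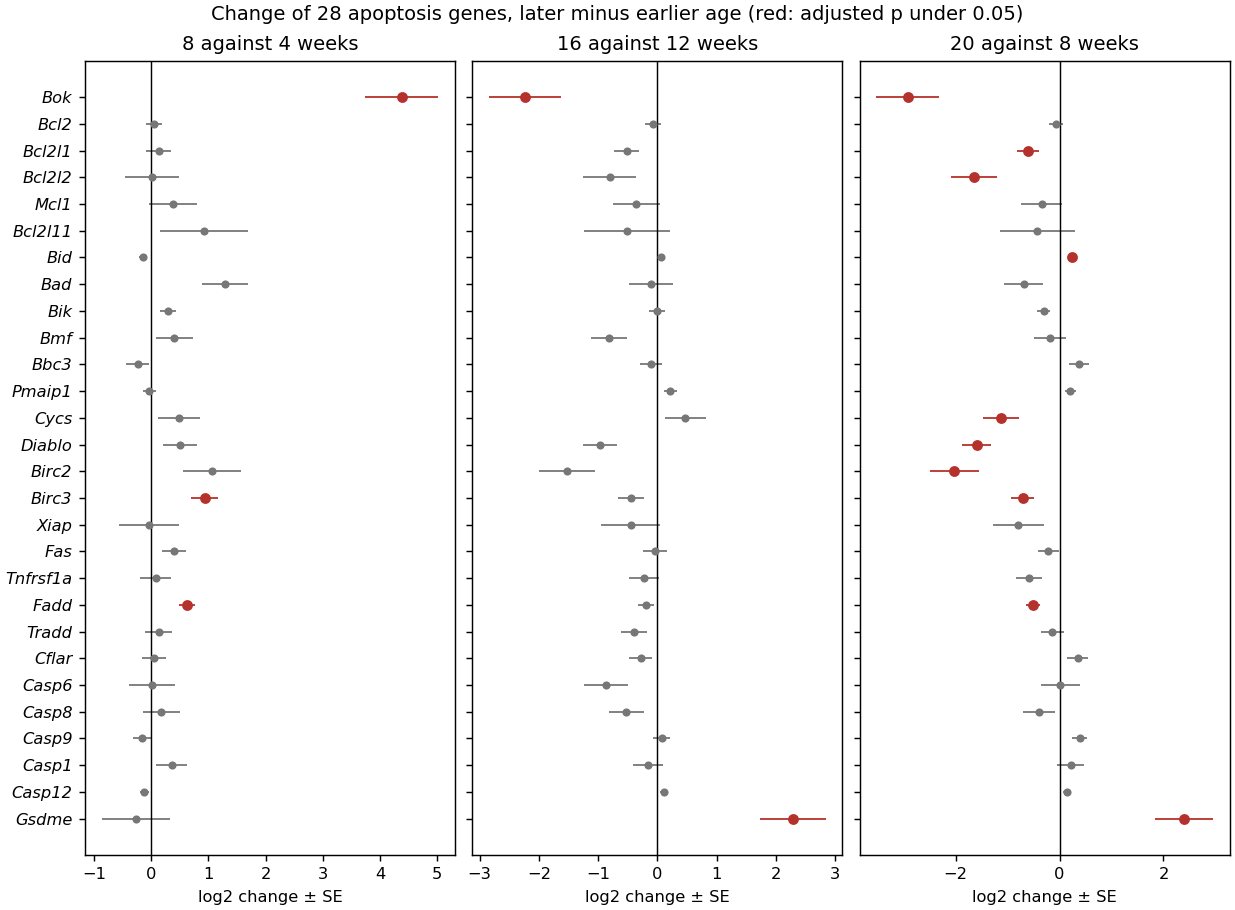
Log2 change ± SE (later minus earlier age) of the 28 tested genes, ordered by role, at 8 against 4 weeks, 16 against 12 weeks and 20 against 8 weeks, with genes past an adjusted p of 0.05 in red. Bok stands at 4.38, −2.23 and −2.92 in the 3 panels, and Gsdme at 2.29 (16 against 12 weeks) and 2.39 (20 against 8 weeks).

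A pair of arrays stood apart in all genes. The SD of all log2 values was lower in replicate 4 at 16 weeks and in replicate 1 at 20 weeks than in the other 24, whose SDs lay between 1.78 and 2.27, and their correlation with arrays of their own age was lower. Without this pair 8 genes were called over the 5 ages, 7 of them among the 8 above, and 8 at 20 against 8 weeks. Calls over all genes were then 2577 over the 5 ages (1847 with the pair) and 1907 at 20 against 8 weeks (3123 with it). The actin control (3′ minus 5′ probe set, log2), which rises where RNA is shorter, averaged 2.90, 2.63, 3.69, 4.56 and 3.89 from 4 to 20 weeks. Its part in the results was not tested beyond a fit with it as a covariate.

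Among the effectors, Bok showed the largest single change of the list. Bok is a relative of Bax and Bak that is held low by degradation of its protein in many cells. It read 2.24, 2.27, 2.27 and 2.25 at 4 weeks, near background on each array. At 8 weeks the lowest, median and highest array stood at 3.74, 7.07 and 8.12, and at 12 weeks at 5.66, 6.38 and 7.22. At 8 weeks 5 of 6 arrays were above 6, while replicate 6 stood far below them, and all 6 lay above the 4-week arrays. Bok then read 4.74, 5.42, 3.84, 2.23 and 4.41 at 16 weeks and 2.33, 3.47, 4.09, 3.65 and 5.03 at 20 weeks. No 16-week array reached the lowest 12-week array.

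At 8 weeks Bok was thus higher by 4.38 ± 0.64 (SE) than at 4 weeks, 6.64 against 2.26 (limma adjusted p = 0.000745), a lower bound. It was called in each of 14 other settings and without each array. At 16 weeks it averaged 4.13, against 6.36 at 12 weeks, a change of −2.23 ± 0.60 (limma adjusted p = 0.0472). That call was lost in 7 of 14 settings and without 19 of 26 arrays, and without the pair of arrays that stood apart the change was −1.76 (adjusted p = 0.0721). At 20 weeks Bok averaged 3.72, against 6.64 at 8 weeks, a change of −2.92 ± 0.60 (limma adjusted p = 0.00339) that held in all 14 settings and without each array. Without the pair it was −2.57 (adjusted p = 0.00432). At 20 against 4 weeks the change of 1.46 did not pass (limma adjusted p = 0.31), and both means are near background. Bak1, the effector at the mitochondrial membrane in most cells, read between 2.85 and 3.15 on all arrays, near background.

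Macrophage markers moved in the same step as Bok, Fadd and Birc3. Of 9 markers, 6 rose at 8 weeks against 4 weeks, with list means between 7.83 and 8.86 on the 8-week arrays and between 5.52 and 6.33 on the 4-week arrays. Cd68 and C1qc were near background at 4 weeks. At 20 weeks the list averaged 8.01, against 8.35 at 8 weeks, and 1 marker was called lower. Replicate 1 at 20 weeks, of the pair that stood apart, had a list mean of 5.83. The other 20-week arrays lay between 8.10 and 9.13, so the lower average rests on 1 array. Other lists had calls in these comparisons too. At 8 against 4 weeks 1 of 2 plasma cell, 1 of 3 keratinised skin and 1 of 4 lacrimal acinar markers rose, and 1 of 4 fibroblast markers fell. At 20 against 8 weeks both plasma cell markers rose, with list means of 6.03 at 20 weeks and 4.81 at 8 weeks, and 1 fibroblast marker fell. Of all genes, 1.36% were called at 8 against 4 weeks (1.14% higher). At 20 against 8 weeks 10.6% were called higher and 14.7% lower. The part of these cell types in the values of the apoptosis genes was not tested.

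**Figure D3:**
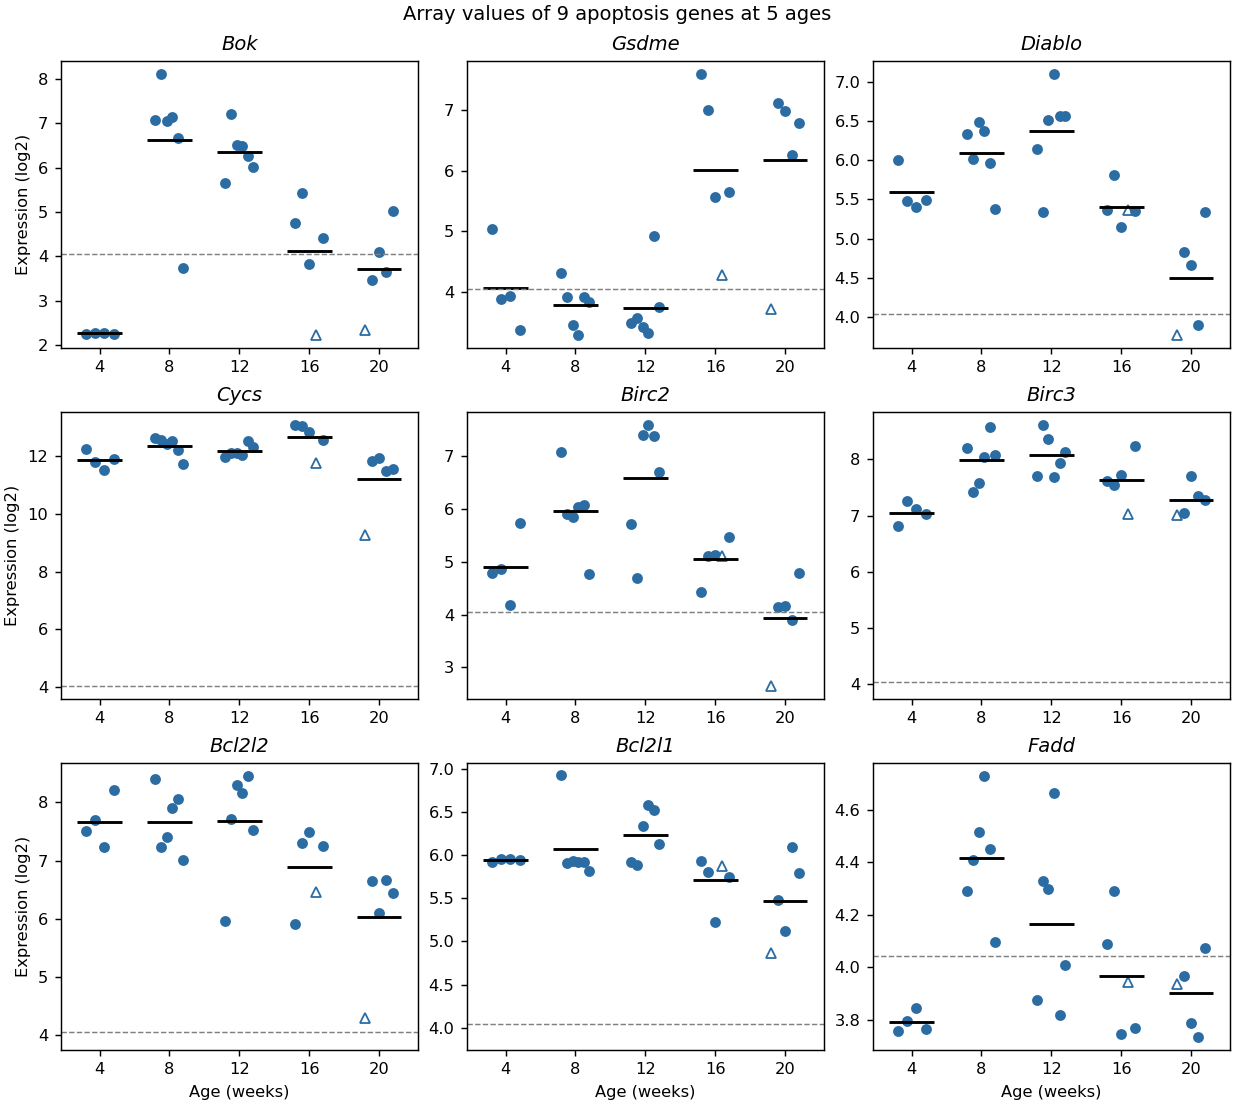
Log2 expression of 9 apoptosis genes on each array (points), by age in weeks, with the mean of each age (bars) and the near-background level of 4.04 (dashed line). Open triangles are replicate 4 at 16 weeks and replicate 1 at 20 weeks, the arrays that stood apart. Gsdme lies above the line on all but 1 of the arrays at 16 and 20 weeks, and Diablo and Birc2 are highest at 12 weeks.

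All 4 guardians, which bind and restrain the effectors, were tested. At 20 weeks against 8 weeks 2 of them fell, with 14.7% of all genes called lower. Bcl2l2 (Bcl-w) read 4.28, 6.65, 6.09, 6.67 and 6.44 at 20 weeks, against a lowest, median and highest of 7.01, 7.65 and 8.40 at 8 weeks. All 20-week arrays lay below all 8-week arrays, a change of −1.64 ± 0.44 (means 6.03 and 7.67, limma adjusted p = 0.0156). Without replicate 1 at 20 weeks, the lowest array, the change was −1.21 and did not pass (adjusted p = 0.0513), and without the pair of arrays that stood apart it was −1.21 and passed (adjusted p = 0.047). The call was also lost with the mean of the probe sets (−0.24, limma adjusted p = 0.129). It was lost too with array spread (−0.82, 0.106) or actin (−1.52, 0.0746) as a covariate. The other probe sets of Bcl2l2, near background, changed by 0.16, 0.32 and 0.22. At 4, 12 and 16 weeks Bcl2l2 averaged 7.66 ± 0.41, 7.69 ± 0.92 and 6.88 ± 0.67 (SD, n = 4, 6 and 5).

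Bcl2l1 (Bcl-xL) read 4.87, 5.49, 5.12, 6.10 and 5.80 at 20 weeks, with 5.82, 5.93 and 6.93 as the lowest, median and highest array at 8 weeks, so the groups overlap. Its change of −0.60 ± 0.21 (means 5.48 and 6.08) had a limma adjusted p of 0.0415, was lost in 7 of 14 other settings, and was −0.04 after quantile normalization (adjusted p = 0.9). It was −0.45 without replicate 1 at 20 weeks (adjusted p = 0.138) and without the pair (adjusted p = 0.135). At 4, 12 and 16 weeks it averaged 5.95 ± 0.01, 6.23 ± 0.30 and 5.72 ± 0.28 (SD). Bcl2, the founding guardian, stayed near background, between 2.83 and 3.86 on all arrays, and its change over the 5 ages had an adjusted p of 0.912 in limma's F test.

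Mcl1, the short-lived guardian, did not pass in any comparison (limma adjusted p = 0.351 over the 5 ages), but its probe sets differed. The one used averaged 8.95, 9.34, 9.80, 9.44 and 9.0 from 4 to 20 weeks, a change of −0.34 ± 0.40 at 20 against 8 weeks. It and the other two with names ending in _x_at, which can bind related transcripts, changed by −0.34, −0.29 and −0.06. The 3 others, with names ending in _at, changed by −1.03, −1.54 and −1.26. Without replicate 1 at 20 weeks, where Mcl1 read 6.66 and the other 20-week arrays between 9.17 and 10.17, the change of the probe set used was 0.25. The size of the change thus depends on the probe set, and the direction of the one used on 1 array.

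**Figure D4:**
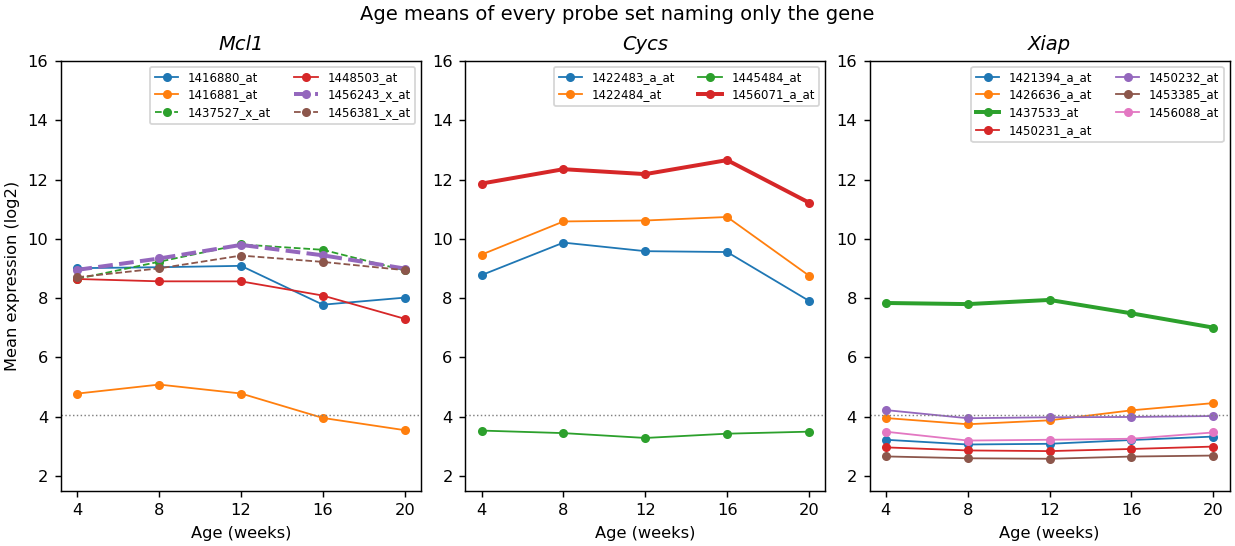
Mean log2 expression at 5 ages of each probe set that names only Mcl1, Cycs or Xiap, with the one used drawn thick, names ending in _x_at dashed and the near-background level of 4.04 dotted. The 3 bright probe sets of Cycs all drop at 20 weeks but differ in earlier steps. The 6 of Mcl1 do not run in parallel, and only 1 of Xiap is well above background.

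The 7 BH3-only genes, which relay damage and stress signals to the guardians, were all tested. Only Bid was called in any comparison, higher at 20 against 8 weeks, with 10.6% of all genes called higher there. Bid, which caspase-8 cuts to link the surface route to mitochondria, was near background at every age. It read 3.44, 3.12, 3.18, 3.20 and 3.11 at 20 weeks, with 2.90, 2.97 and 3.05 as the lowest, median and highest array at 8 weeks. The difference of 0.24 ± 0.06 passed (limma adjusted p = 0.0172), and it was 0.18 without replicate 1 at 20 weeks (adjusted p = 0.0513) and without the pair (adjusted p = 0.0514). All these values are near background, so neither a fold nor an order of expression is given for Bid.

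Bad, the BH3-only protein inactivated by survival kinases, had the largest difference among those not called. At 8 weeks it averaged 6.71, with a lowest, median and highest array of 5.37, 6.80 and 7.58, against 5.08, 5.21, 5.39 and 5.98 at 4 weeks. The difference of 1.30 ± 0.40 did not pass (limma adjusted p = 0.125), and replicate 6 at 8 weeks lay within the 4-week range. Bcl2l11 (Bim) was the most variable, between 1.99 and 5.88 among 20-week arrays and between 2.39 and 6.09 among 12-week arrays. Bbc3 (Puma) ranged from 5.38 to 6.72 over all arrays, Bmf from 3.47 to 6.00, Bik from 3.51 to 4.74 and Pmaip1 (Noxa) from 3.14 to 3.93.

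Of Cycs, Apaf1 and Diablo, which act once the outer membrane is open, Cycs and Diablo were tested. Both fell at 20 weeks against 8 weeks, with 14.7% of all genes called lower. Diablo read 3.78, 4.83, 4.67, 3.90 and 5.35 at 20 weeks, with a lowest, median and highest array of 5.38, 6.18 and 6.49 at 8 weeks. All 20-week arrays were below all 8-week arrays, a change of −1.59 ± 0.28 (means 4.50 and 6.09, limma adjusted p = 0.00129). The call held in all 14 other settings and without each array, and the change was −1.41 without the pair of arrays that stood apart. At 16 weeks Diablo read 5.36, 5.81, 5.14, 5.36 and 5.35, with a lowest, median and highest array of 5.34, 6.53 and 7.10 at 12 weeks. That step of −0.97 ± 0.28 did not pass (limma adjusted p = 0.0605), and replicate 2 at 12 weeks lay within the 16-week range. At 4 weeks it read 6.00, 5.49, 5.40 and 5.49, above all 20-week arrays, with a limma adjusted p of 0.0651 for 20 against 4 weeks.

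Cycs, which encodes cytochrome c, an electron carrier of respiration as well as a death signal, read 9.28, 11.85, 11.94, 11.49 and 11.55 at 20 weeks, with 11.73, 12.47 and 12.65 as the lowest, median and highest array at 8 weeks. The change was −1.13 ± 0.34 (limma adjusted p = 0.0257), and it was −0.64 without replicate 1 at 20 weeks (adjusted p = 0.0562) and without the pair of arrays that stood apart, where it passed (adjusted p = 0.0162). At 16 weeks it read 13.08, 13.04, 12.84, 11.76 and 12.58. Against those, the change at 20 weeks was −1.43 ± 0.36, with a limma adjusted p of 0.302. Without the pair, the difference was −1.17 and passed (adjusted p = 0.0074), and all the 20-week arrays left lay below the 16-week ones. At 16 against 12 weeks Cycs was not called, and without the pair its change was 0.70 and passed (adjusted p = 0.0261). On all arrays this step was 0.47 in the probe set used, but −0.03 and 0.12 in its other bright probe sets. Cycs averaged 11.87 ± 0.31 at 4 weeks and 12.19 ± 0.21 at 12 weeks (SD). The other two of its 3 bright probe sets changed by −1.96 and −1.83 at 20 against 8 weeks. Apaf1, the scaffold of the apoptosome, read between 2.80 and 3.53 on all arrays.

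The 3 inhibitors of apoptosis were tested and 2 fell at 20 weeks against 8 weeks, with 14.7% of all genes called lower. Of the 2, Birc3 did not fall after quantile normalization. Birc2 (cIAP1), a ubiquitin ligase of the TNF receptor complex, read 2.66, 4.14, 4.16, 3.90 and 4.79 at 20 weeks, with 4.77, 5.97 and 7.08 as the lowest, median and highest array at 8 weeks. The groups touch only where the highest 20-week array, replicate 5, passes the lowest 8-week array, replicate 6. The change of −2.02 ± 0.47 (means 3.93 and 5.95, limma adjusted p = 0.00704) held in all 14 other settings and without each array, and was −1.71 without the pair that stood apart. At 12 weeks Birc2 had a lowest, median and highest array of 4.69, 7.03 and 7.58, the highest median of the 5 ages. At 16 weeks it read 4.44, 5.10, 5.13, 5.11 and 5.47, a change of −1.53 against 12 weeks with a limma adjusted p of 0.0726. At 4 weeks it read 4.79, 4.87, 4.18 and 5.74.

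Birc3 (cIAP2), which is induced by NF-κB signalling, rose early. It had a lowest, median and highest array of 7.41, 8.06 and 8.58 at 8 weeks, all above the 6.81, 7.26, 7.11 and 7.03 at 4 weeks. The change of 0.93 ± 0.23 passed (limma adjusted p = 0.0424) but was called in 5 of 14 other settings, and quantile normalization gave an adjusted p of 0.63. At 20 weeks Birc3 read 7.0, 7.05, 7.70, 7.35 and 7.28, a change of −0.71 ± 0.22 against 8 weeks (limma adjusted p = 0.0258). After quantile normalization that change turned to 0.11 (adjusted p = 0.832), so its direction depends on the scaling. At 12 and 16 weeks Birc3 averaged 8.07 ± 0.37 and 7.63 ± 0.43 (SD). Birc2 and Birc3 lie side by side on chromosome 9 with no protein-coding gene between them. Xiap, the inhibitor that binds caspases most directly, did not change past the threshold. It averaged 7.01 at 20 weeks and 7.80 at 8 weeks, with replicate 1 at 20 weeks at 4.59 and the others between 7.18 and 8.22. Another probe set of Xiap went the other way, from 3.74 at 8 weeks, near background, to 4.46 at 20 weeks (0.71 ± 0.28). No direction is therefore given for Xiap.

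Of the 4 death receptor and ligand genes, Fas and Tnfrsf1a were tested and neither was called (25.2% of all genes were at 20 against 8 weeks). Fas, the receptor of Fas ligand, averaged 4.54 ± 0.23, 4.93 ± 0.52, 4.61 ± 0.11, 4.57 ± 0.32 and 4.72 ± 0.27 from 4 to 20 weeks (SD), with an adjusted p of 0.39 over the 5 ages by limma's F test. Tnfrsf1a, the main receptor for TNF, averaged 6.04 at 20 weeks and 6.63 at 8 weeks, a change of −0.59 ± 0.25 that did not pass (limma adjusted p = 0.0838). Fasl ranged from 2.24 to 2.62 and Tnfrsf10b from 2.50 to 3.52, near background. Fas ligand is made by cytotoxic lymphocytes, whose marker list averaged between 2.51 and 2.68 at the 5 ages.

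With 14.9% of all genes called over the 5 ages, only Fadd of Fadd, Tradd and Cflar was called. Fadd is the adaptor that carries caspase-8 to the receptors. It had a lowest, median and highest array of 4.10, 4.43 and 4.73 at 8 weeks, all above the 3.76, 3.80, 3.84 and 3.77 at 4 weeks. The change of 0.62 ± 0.15 passed (limma adjusted p = 0.0313), and was lost without each of the 4-week arrays in turn (adjusted p between 0.0607 and 0.0977) as well as without 4 other arrays. At 20 weeks Fadd read 3.94, 3.97, 3.79, 3.74 and 4.07, all below the 8-week arrays, a change of −0.51 ± 0.14 (limma adjusted p = 0.0144). That call held without each array and in 11 of 14 other settings. It was lost with the mean of the probe sets (limma adjusted p = 0.0908) and with array spread (0.0569) or actin (0.0895) as a covariate. The other probe set of Fadd, near background, changed by 0.08 in this comparison. Means of Fadd at 4, 16 and 20 weeks were near background, at 3.79, 3.97 and 3.90, so both changes are lower bounds. At 12 weeks it averaged 4.17 ± 0.32 (SD).

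Tradd, the adaptor of the TNF receptor, ranged from 5.73 to 7.47 with no call. Cflar averaged 4.24 ± 0.09, 4.28 ± 0.33, 4.40 ± 0.42, 4.12 ± 0.09 and 4.63 ± 0.42 from 4 to 20 weeks (SD), with an adjusted p of 0.259 over the 5 ages by limma's F test. At 20 against 8 weeks its probe set used changed by 0.35, and another 2 of its 5 by −0.65 and −0.12, so no direction is given for it.

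No caspase was called in any comparison, of 5 tested, with 25.2% of all genes called at 20 against 8 weeks. Casp8, the initiator of the surface route, averaged 4.08 ± 0.40, 4.25 ± 0.38, 4.59 ± 0.69, 4.07 ± 0.60 and 3.86 ± 0.35 from 4 to 20 weeks (SD), with an adjusted p of 0.294 over the 5 ages by limma's F test. Casp6, an executioner, ranged from 5.59 to 7.10 on every array but 1, replicate 4 at 16 weeks, which read 3.51. Casp9, the caspase of the apoptosome, read between 3.27 and 4.70. Casp1, the caspase that matures interleukin-1β, averaged 2.91 ± 0.15, 3.27 ± 0.35, 3.42 ± 0.45, 3.27 ± 0.51 and 3.48 ± 0.56 from 4 to 20 weeks (SD), near background (adjusted p = 0.432 over the 5 ages, limma). Casp12 stayed between 3.23 and 3.63, Casp4 between 2.55 and 2.99 and Casp2 between 2.70 and 3.78. Cflar and Casp8 are neighbours in the genome, as are Casp1, Casp4 and Casp12.

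Gsdme, the gasdermin that turns caspase-3 activity into membrane rupture, was the only gene of the list to rise late to a level above background. At 4 weeks it read 5.04, 3.87, 3.93 and 3.36. It had a lowest, median and highest array of 3.28, 3.87 and 4.31 at 8 weeks and of 3.31, 3.52 and 4.91 at 12 weeks, near background. At 16 weeks it read 7.60, 7.01, 5.57, 4.27 and 5.65, and at 20 weeks 3.71, 7.12, 6.99, 6.27 and 6.80. In 8 of these 10 arrays it was above every earlier array, and the 2 that were not are the pair that stood apart.

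At 16 weeks Gsdme was higher by 2.29 ± 0.55 than at 12 weeks (6.02 against 3.73, limma adjusted p = 0.0306), and without the pair by 2.72 (adjusted p = 0.0012). The call was kept in 11 of 14 other settings and without 20 of 26 arrays. With adipose and salivary gland markers as covariates the change was 1.97 and did not pass (adjusted p = 0.164). In that fit only 2 of all genes were called in this step, against 369 without the covariates, so the loss was not particular to Gsdme. The adipose markers averaged 4.15 at 16 weeks, with arrays between 3.06 and 5.79, against 3.67 at 12 weeks, with arrays between 3.03 and 5.27. The salivary gland markers averaged 7.12 at 16 weeks, with arrays between 4.73 and 9.42, against 8.83 at 12 weeks, with arrays between 6.80 and 9.85. The lacrimal acinar markers averaged 8.76 at 16 weeks and 9.72 at 12 weeks. No marker of these 3 lists was called in this step. At 20 weeks Gsdme was higher by 2.39 ± 0.55 than at 8 weeks (6.18 against 3.78, limma adjusted p = 0.00684), a call that held in all 14 settings and without each array. Adipose markers averaged 3.21 and 3.09 at these ages. Against 4 weeks the difference at 20 weeks was 2.12 ± 0.61 (limma adjusted p = 0.0687), and without the pair it was 2.74 and passed (adjusted p = 0.000241). All the Gsdme changes rest on 1 probe set, since the other one read between 2.46 and 2.55 at every age. Gsdme and Cycs lie on chromosome 6 with 1 protein-coding gene between them, and at 20 against 8 weeks one rose and the other fell.

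In the fall to 20 weeks the actin control and the spread of the arrays moved too. The actin difference averaged 3.89 at 20 weeks and 2.63 at 8 weeks, and the mean SD of the arrays was 1.87 and 2.12. Of the 3123 calls over all genes, 681 were kept with actin as a covariate and 741 with array spread. With either covariate, 4 of the 10 calls of the list were kept, those of Bok, Birc2, Diablo and Gsdme. Their changes were −2.41, −2.05, −1.55 and 2.98 with actin, and −2.01, −1.24, −1.18 and 3.30 with array spread.

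Beyond the list, 60 other genes of the pathway were counted, of which 50 had a probe set and 37 were tested. Over the 5 ages 4 were called (10.8%, beside 14.9% of all genes), namely Tnfsf10, Mdm2, Dap3 and Pea15a. At 20 weeks 8 were called against 8 weeks (21.6%, beside 25.2% of all genes), 6 of them lower. Those lower were the co-chaperones Bag1 (−1.69 ± 0.56) and Bag3 (−0.90 ± 0.31), the NF-κB adaptor Bcl10 (−2.06 ± 0.61), Dap3 (−1.10 ± 0.39), the p53 ligase Mdm2 (−1.04 ± 0.25) and the mitochondrial channel Vdac2 (−1.82 ± 0.65). Those higher were the nuclease Dffb (0.29 ± 0.08) and Tnfsf10, the death ligand TRAIL (0.60 ± 0.16), both near background at both ages. Tnfsf10 also rose at 16 weeks against 12 weeks, by 0.69 ± 0.16 (4.07 against 3.38, limma adjusted p = 0.03). Its 12-week mean was near background and its 16-week mean barely above that level. It was the only call among the 37 in this step (2.7%, beside 2.98% of all genes).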

How the data were processed

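The authors deposited 1 table of log2 expression values for 45101 probe sets on 26 arrays, which were used as they are. The submitters' processing notes list RMA and GCRMA with no version, and do not say which gave this table. The SD of an array lay between 1.36 and 2.27, so the arrays were not on one common distribution as deposited, and quantile normalization was tried as another setting. The platform annotation gives 1 symbol for 34958 probe sets, several for 932 and none for 9211. Genes above the array median on fewer than 4 arrays were dropped.

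Tests used limma 3.58.1 (R 4.3.3; lmFit and eBayes, 1 mean per age, no covariate), with an F test over the ages and 6 contrasts, two-sided, adjusted over all genes kept. The script was tested on simulated data. The genes, lists and tests were chosen with earlier results of these data known. Genes called in any comparison are named, with a fixed set of textbook members. Other settings changed the normalization, filter, probe sets, variance model, arrays and covariates. Where replicates share a source, p-values reflect only technical spread, and the number of arrays limits the precision.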

Additional observations from a re-analysis of the deposited data

Results flagged for a closer look

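In 26 of the 140 groups of 4 to 6 arrays (28 genes at 5 ages), 1 array lay apart from the others of its age by Dixon's criterion, which chance alone does in about 1 of 20 groups. Replicate 1 at 20 weeks, 1 of the pair of arrays that stood apart over all genes, held 9 of them. It was lowest for Bcl2l2 (4.28), Mcl1 (6.66), Bmf (3.47), Casp8 (3.25), Tradd (5.73), Xiap (4.59), Cycs (9.28) and Gsdme (3.71), and highest for Bid (3.44), which is near background. The other array of the pair, replicate 4 at 16 weeks, was lowest for Mcl1 (9.14) and Casp6 (3.51).

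Replicate 6 at 8 weeks was lowest for Bok at 3.74, where the next array read 6.68. Replicate 1 at 8 weeks was highest for Bcl2l1 (6.93), Mcl1 (10.26) and Tnfrsf1a (7.44). At 4 weeks replicate 3 was lowest for Bcl2l11 (2.35), Bmf (3.80) and Tradd (6.23), and replicate 1 was highest for Cflar (4.36) and Diablo (6.00). At 12 weeks replicate 1 was lowest for Bcl2l2 (5.95), replicate 3 was lowest for Bik (3.51) and replicate 5 was highest for Gsdme (4.91). At 16 weeks replicate 2 was highest for Casp1 (4.17), replicate 3 was lowest for Bcl2l1 (5.23) and replicate 5 was lowest for Bik (3.57).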

How the results depend on the processing

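Of the values of single genes under other settings, 4220 kept their side of the threshold, 145 lost it and 56 gained it. Of the changes called, 1 turned its direction, Birc3 at 20 against 8 weeks (0.113 after quantile normalization). A further 97 changes that passed in neither fit, counted in the 4220, changed sign. Of the 28 genes, 8 were called over the 5 ages, and 18 with array weights, which put most weight on 1 array at 4 weeks and called 8152 of all genes. At 8 against 4 weeks the 3 calls became 1 with the mean of the probe sets and 11 with array weights. Calls over all genes went from 168 to 187 and 4557 in these settings. At 16 against 12 weeks the 2 calls became 1 with median centring, without a filter, with the replicate block, with only the ages compared and with actin as a covariate, 0 with adipose and salivary markers as covariates, and 8 with array weights. Calls over all genes went from 369 to 277, 201, 228, 321, 116, 2 and 2795, in the same order. At 20 against 16 weeks, where there were 0 calls, 1 was made after quantile normalization, with array weights, without the pair of arrays that stood apart and with array spread as a covariate. Calls over all genes went from 2 to 46, 249, 10 and 46, in the same order. At 20 against 8 weeks the 10 calls became 5 with the mean of the probe sets, 17 with array weights, 6 with only the ages compared, and 4 with array spread or actin. Calls over all genes went from 3123 to 3214, 4986, 1055, 1156 (array spread) and 701 (actin). At 20 against 4 weeks, with 0 calls, there were 3 after quantile normalization, 2 with the stricter filter, 1 with the mean of the probe sets, 9 with array weights, 1 without the pair, 4 with array spread and 1 with actin. Calls over all genes went from 273 to 852, 353, 331, 3473, 1021, 1091 and 176, in the same order. The causes of these differences were not tested. Without each array in turn, the calls ranged from 6 to 9 over the 5 ages, from 1 to 4 at 8 against 4 weeks, from 0 to 5 at 16 against 12 weeks, from 5 to 12 at 20 against 8 weeks and from 0 to 1 at 20 against 4 weeks, and stayed at 0 in both other steps. Over all genes these 5 ranges were 1380 to 2952, 61 to 417, 68 to 886, 1364 to 4344 and 73 to 722. The 5 calls at 16 against 12 weeks and the 5 at 20 against 8 weeks both came without replicate 1 at 20 weeks. Of all genes, 872 and 1481 were called there. With the replicate block the calls were 7 over the 5 ages, 2 at 8 against 4 weeks and 9 at 20 against 8 weeks. Over all genes they were 1310, 93 and 1989. Replicate numbers did not pair the arrays, since arrays of 1 number correlated between −0.48 and 0.49 (median −0.08), arrays of different numbers between −0.66 and 0.61 (median 0.02), and 1 of 26 arrays was closest to its own number. Genes near background have no order below that level.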
